A study of Mus musculus with 32 samples.

Results

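Bst2, Ifitm2, Ifitm3, Siglec1, Rsad2, Zbp1, Xaf1 and Rtp4 are interferon-induced genes, most of which encode membrane proteins or proteins that restrict viruses. The rows of each deposited transcript table that carried 1 of these 8 symbols were summed by gene. All 8 were found among the 13377 genes of the female table and among the 11999 genes of the male table, and each was tested there together with all other genes. Every listed transcript had at least 10 counts in at least 8 libraries of the female table or 9 libraries of the male table, so both tables had already been filtered on low counts.

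The study sorted microglia from mouse spinal cord by flow cytometry and sequenced their RNA, in 32 libraries labelled day 14. Tamoxifen and then diphtheria toxin were used to deplete microglia for a time, so that repopulated cells could be set against resident ones, with and without a fracture. The female table held 4 repopulated and 4 resident libraries with fracture, and 3 repopulated and 4 resident libraries without fracture. The male table held 7 repopulated and 5 resident libraries with fracture, and 2 repopulated and 3 resident libraries without fracture.

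Every group has Cx3Cr1-Cre;Rosa26-iDTR as its labelled genotype, in which Cre from the Cx3Cr1 locus switches on a diphtheria toxin receptor, and Cx3Cr1 is also active in macrophages other than microglia. Library descriptions name the repopulated groups Dt in females and iDTR in males, and the resident groups Wt or WT. If the resident mice lacked the receptor or the toxin, those differences cannot be told apart from repopulation. Females and males also differed in RNA isolation and library kit, so sex and kit cannot be told apart, and the tables were fitted separately. The labels do not say that replicates were separate animals, so p-values measure the spread between these libraries.

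Total estimated counts ran between 16438827 and 18654165 per female library and between 5722993 and 33697535 per male library. All 10 microglial markers were listed in both tables, with summed levels of 45090 to 69840 CPM over the 32 libraries. Without fracture the male ranges did not overlap, at 55940 to 59050 CPM in repopulated and 62670 to 65390 CPM in resident libraries. Of the 10, 4 were lower and 1 higher in repopulated cells (edgeR, adjusted p below 0.05), as were 326 and 564 of all genes. In females without fracture 2 were lower and 1 higher, as were 129 and 209 of all genes. With fracture 2 were lower in males and 1 in females, as were 225 and 145 of all genes. In the other pairs of repopulated and resident groups the summed levels overlapped. Between fracture and no fracture they overlapped too, except in female repopulated libraries. These had 46180 to 47440 CPM without fracture and 49590 to 51500 CPM with it. CPM stands for counts per mega-count of the library, after scaling by the trimmed mean of M values (TMM). No T or NK cell marker was among the rows of either table.

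Type I interferons bind the receptor formed by Ifnar1 and Ifnar2. Signalling from the receptor leads to a complex that holds Stat2 and Irf9 and binds the interferon-stimulated response element (ISRE) in the promoters of target genes, while interferon gamma acts mainly at the gamma-activated site (GAS). Bst2, also called tetherin, holds budding enveloped virions at the cell surface. Ifitm2 and Ifitm3 are small membrane proteins that hinder the entry of enveloped viruses. Siglec1, the sialic acid-binding lectin CD169, is a surface protein of macrophages that is low in unstimulated microglia. Rsad2, also called viperin, makes a nucleotide analogue that stops viral RNA synthesis. Zbp1 senses Z-form nucleic acids and can start necroptosis through Ripk3, Xaf1 binds and opposes the apoptosis inhibitor Xiap, and Rtp4 helps some G protein-coupled receptors reach the cell surface.

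The 8 genes lie on 6 chromosomes of the GRCm38 build, where the GENCODE M21 annotation lists each as protein-coding. Ifitm2 (chr7:140954837-140955987) and Ifitm3 (chr7:141009586-141010770) are on the minus strand of chromosome 7, 53598 bases apart. Bst2 (chr8:71534255-71537456), Rsad2 (chr12:26442746-26456452), Siglec1 (chr2:131069220-131086765) and Zbp1 (chr2:173206612-173218923) are also on minus strands. Xaf1 (chr11:72301629-72313733) and Rtp4 (chr16:23520291-23614222) are on plus strands.

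RefSeq promoters of the GRCm38.p6 build, covering 250 bases before to 50 bases after the gene start, were found for 5 of the 8 genes, and Siglec1, Zbp1 and Rtp4 were not in that table. They were searched on both strands for an ISRE core (GAAA, any 2 bases, then GAAA) and a GAS core (TTC, any 3 bases, then GAA). An ISRE core was present in 4 of the 5 promoters, those of Ifitm3, Ifitm2, Bst2 and Rsad2, whereas 3.44% of 32851 promoters of this length held it. A GAS core was present in the Bst2 and Ifitm3 promoters, 2 of the 5, against 8.3% of all promoters. It overlapped an ISRE core in each of them. The Xaf1 promoter held neither core in this window. The 4 promoters with an ISRE core are printed here because the levels of their genes are compared below; they read in the direction of the gene, and capitals mark the ISRE core.
Ifitm3 promoter, chr7:141010695-141010994, minus strand: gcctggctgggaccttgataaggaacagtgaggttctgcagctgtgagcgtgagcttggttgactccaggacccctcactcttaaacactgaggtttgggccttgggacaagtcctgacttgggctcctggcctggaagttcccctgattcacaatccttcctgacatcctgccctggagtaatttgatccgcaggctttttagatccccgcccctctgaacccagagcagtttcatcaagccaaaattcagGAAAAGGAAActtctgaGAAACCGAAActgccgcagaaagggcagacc
Ifitm2 promoter, chr7:140955912-140956211, minus strand: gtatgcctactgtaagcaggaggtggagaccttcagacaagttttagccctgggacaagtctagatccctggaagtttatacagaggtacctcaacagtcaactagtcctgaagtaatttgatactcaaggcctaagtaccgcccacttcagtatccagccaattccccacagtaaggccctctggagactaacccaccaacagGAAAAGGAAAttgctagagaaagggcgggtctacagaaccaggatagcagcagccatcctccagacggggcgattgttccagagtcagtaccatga
Bst2 promoter, chr8:71537423-71537722, minus strand: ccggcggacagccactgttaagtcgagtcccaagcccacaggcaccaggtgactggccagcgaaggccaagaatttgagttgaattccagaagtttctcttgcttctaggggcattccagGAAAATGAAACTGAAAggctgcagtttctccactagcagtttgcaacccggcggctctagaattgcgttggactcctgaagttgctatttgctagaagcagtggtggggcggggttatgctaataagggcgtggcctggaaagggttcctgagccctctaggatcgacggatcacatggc
Rsad2 promoter, chr12:26456403-26456702, minus strand: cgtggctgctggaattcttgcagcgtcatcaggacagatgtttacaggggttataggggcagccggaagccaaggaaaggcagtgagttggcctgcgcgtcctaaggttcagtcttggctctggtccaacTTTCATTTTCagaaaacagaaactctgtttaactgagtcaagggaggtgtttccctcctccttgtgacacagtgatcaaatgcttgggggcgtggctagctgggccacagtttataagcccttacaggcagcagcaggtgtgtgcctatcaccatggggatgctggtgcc
Ifitm3 carried its ISRE cores at positions 2 and 19 after the gene start and Ifitm2 carried its 1 core 46 bases before it. Bst2 carried 2 overlapping cores, starting 130 and 124 bases before the gene start. The Rsad2 core lies on the opposite strand, 120 bases before the gene start, and so reads TTTCATTTTC. A match is a description of these letters and no measure of binding.

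In male mice without fracture, 7 of the 8 genes were higher in repopulated than in resident microglia, and the groups did not overlap for any of the 8. The 7 genes were Bst2, Ifitm3, Siglec1, Rsad2, Zbp1, Xaf1 and Rtp4, with log2 fold changes between 1.70 for Bst2 and 4.13 for Rsad2. Of all 11999 genes, 4.7% were called higher in the same comparison at an adjusted p below 0.05, and 17% were higher with no overlap. The median log2 fold change was 3.00 over the 8 genes and -0.03 over all genes. In bulk RNA, fewer cells of a kind and less RNA per cell cannot be told apart.

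Among the genes that act on virus entry and release, Ifitm3 had 403 and 398 CPM in the repopulated libraries, against 29.9, 39.6 and 29.0 CPM in the resident libraries. Both repopulated values were thus close together and far above all resident ones, and Ifitm3 rose by 3.63 ± 0.54 (SE) on the log2 scale, 12.35-fold (adjusted p = 0.000806). Bst2 had 284 and 291 CPM in repopulated microglia, against 85.9, 96.9 and 82.9 CPM in resident microglia. Its log2 fold change was 1.70 ± 0.21 (adjusted p = 2.87e-05), the smallest of the 7 that rose and the one with the smallest adjusted p. Ifitm2 had 15.8 and 20.9 CPM in repopulated libraries, against 8.93, 4.03 and 3.48 CPM in resident libraries. Its groups did not overlap either, but its log2 fold change of 1.72 ± 0.68 did not pass the threshold (adjusted p = 0.160).

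The lectin gene Siglec1 had 25.5 and 20 CPM in repopulated microglia, against 1.12, 0.672 and 3.63 CPM in resident microglia. The resident values rest on 4 to 92 counts per library and the repopulated ones on 220 to 299 counts. Siglec1 rose by 3.57 ± 0.73 on the log2 scale, 11.8-fold (adjusted p = 0.00322). Rsad2, the viperin gene, had 154 and 144 CPM in repopulated libraries, against 10.2, 11.8 and 4.54 CPM in resident libraries. This was the widest separation among the 8 genes, a log2 fold change of 4.13 ± 0.75 or 17.55-fold (adjusted p = 0.00300).

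Zbp1, the nucleic acid sensor, had 65.3 and 64.9 CPM in repopulated microglia, against 4.18, 6.38 and 7.39 CPM in resident microglia. Xaf1 had 67.3 and 57.0 CPM in repopulated libraries, against 22.3, 14.8 and 15.4 CPM in resident libraries. Rtp4 had 279 and 248 CPM in repopulated libraries, against 44.9, 44.2 and 45.4 CPM in resident libraries. The resident libraries agreed most closely for Rtp4 (44.8 ± 0.621 CPM, SD, n = 3). The log2 fold changes were 3.45 ± 0.76 for Zbp1 (adjusted p = 0.00925), 1.82 ± 0.39 for Xaf1 (adjusted p = 0.00524) and 2.56 ± 0.39 for Rtp4 (adjusted p = 0.000692). With only 2 repopulated libraries, leaving out resident replicate 1 ended the call for Zbp1 (adjusted p = 0.0502).

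**Figure D1:**
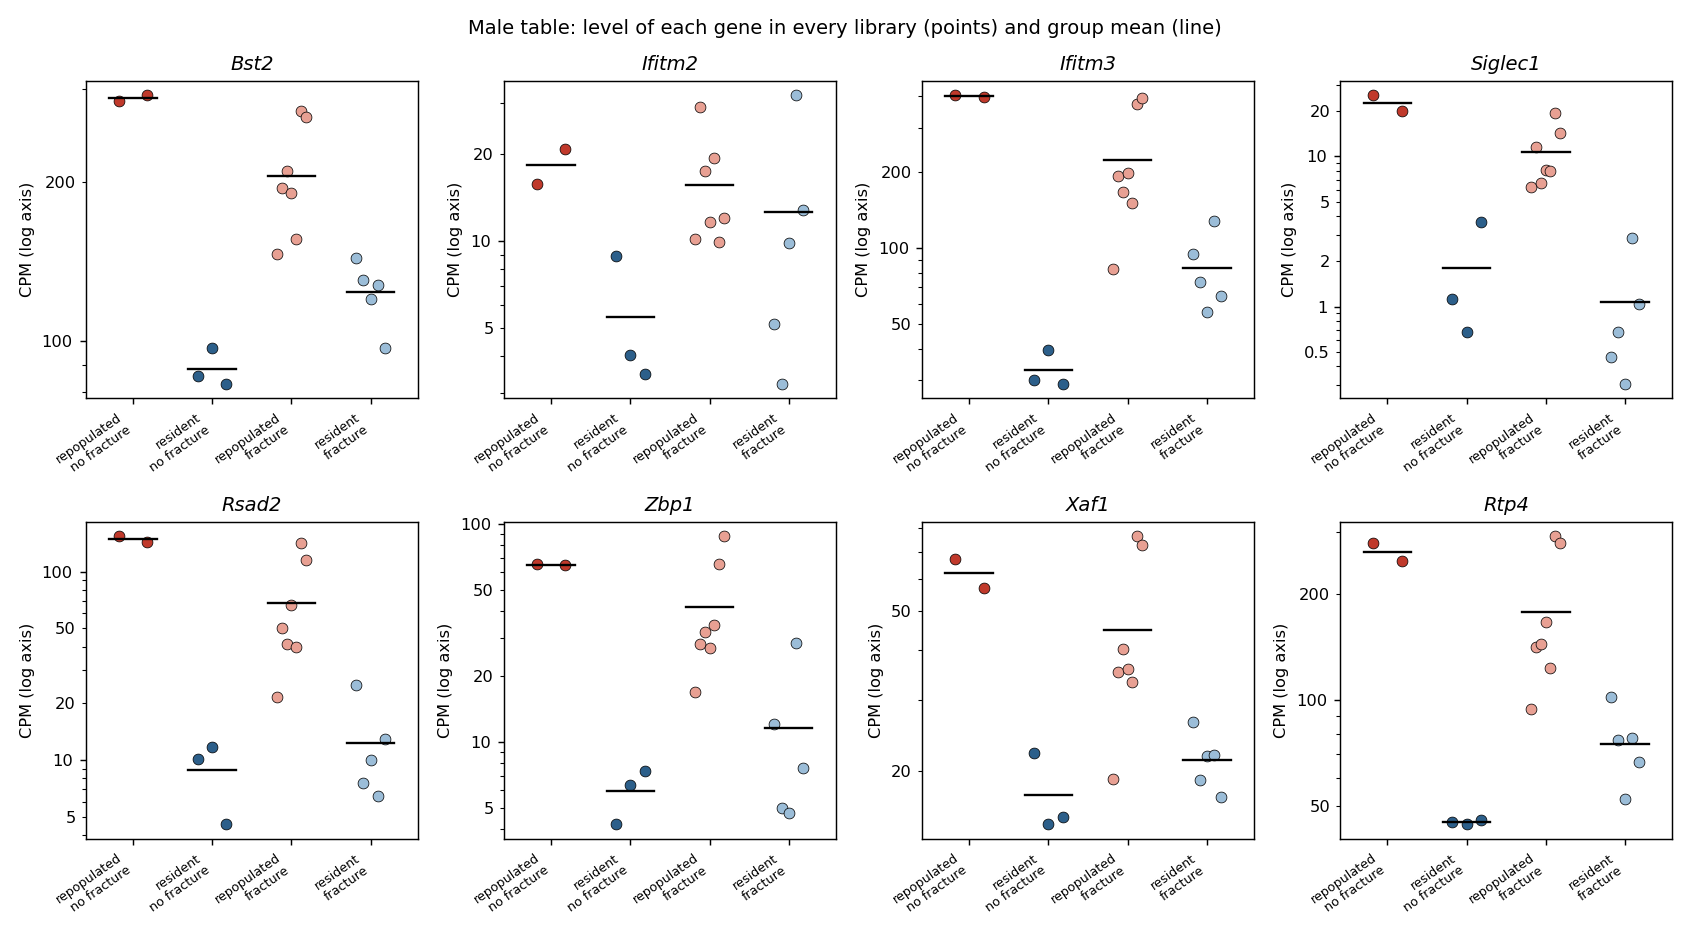
Level in the male table of the 8 genes, one panel per gene, as CPM on a log axis; each point is a library, each horizontal line is a group mean, and groups run along the x axis. Without fracture the repopulated libraries of every gene lie above the resident ones, as for Ifitm3 at 398 to 403 CPM against 29.0 to 39.6 CPM. With fracture the groups are wider, and only Bst2 and Siglec1 keep every repopulated library above every resident one.

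After fracture, the same 7 genes were higher in male repopulated microglia, by smaller estimates, and Ifitm2 was again the exception. The log2 fold changes of the 7 ran between 0.73 for Bst2 and 3.36 for Siglec1, and the median over the 8 genes was 1.33, against -0.00 over all genes. In this comparison 3.03% of all genes were called higher. The groups did not overlap for 2 of the 8 genes, Bst2 and Siglec1, against 2.0% of all genes.

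Siglec1 stood out among the 8 after fracture. Its 7 repopulated libraries had 6.31 to 19.4 CPM with a median of 8.14 CPM, against 0.458, 0.679, 0.306, 2.85 and 1.03 CPM in the resident libraries. Every repopulated library was above every resident one, and the log2 fold change was 3.36 ± 0.53 or 10.2-fold (adjusted p = 0.000627). Bst2 had a lowest value of 146, a median of 195 and a highest value of 273 CPM in repopulated libraries, against 144, 131, 120, 128 and 96.7 CPM in resident libraries. The lowest repopulated value was just above the highest resident one, and Bst2 rose by 0.73 ± 0.14 on the log2 scale (adjusted p = 0.00250).

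Rsad2 had a lowest value of 21.6, a median of 50.04 and a highest value of 142 CPM in repopulated libraries, against 24.9, 7.58, 10.02, 6.40 and 12.96 CPM in resident libraries. Only the lowest repopulated library fell within the resident range, and the log2 fold change was 2.48 ± 0.50 (adjusted p = 0.00855). Ifitm3 had a lowest value of 82.3, a median of 194 and a highest value of 395 CPM in repopulated libraries, against 94.6, 73.2, 55.8, 128 and 64.6 CPM in resident libraries. Its lowest repopulated library fell below the 2 highest resident ones, and the log2 fold change was 1.42 ± 0.35 (adjusted p = 0.0294). Zbp1, Xaf1 and Rtp4 rose by 1.86 ± 0.50, 1.07 ± 0.26 and 1.24 ± 0.26 on the log2 scale (adjusted p = 0.0421, 0.0181 and 0.00963). Their repopulated libraries spanned 17 to 87.9 CPM for Zbp1, 19.2 to 76.6 CPM for Xaf1 and 94.1 to 292 CPM for Rtp4, and each range overlapped the resident one.

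Ifitm2 had a lowest value of 9.95, a median of 12.03 and a highest value of 29.0 CPM in male repopulated libraries after fracture, against 5.19, 3.22, 9.90, 31.9 and 12.9 CPM in resident libraries. The highest value of all was thus resident, in replicate 4, and the log2 fold change was 0.32 ± 0.44 (adjusted p = 0.822). Without that library the log2 fold change was 1.02 (adjusted p = 0.177). The same library also held the highest resident Ifitm3, Siglec1 and Zbp1, and its summed monocyte markers reached 102.1 CPM, against 2.29 to 10.02 CPM in the other 4 resident libraries with fracture. The part of that signal in the result was not tested.

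The fracture libraries of the male table carry V numbers in 2 ranges, V64 to V69 and V99 to V110, whose meaning the labels do not give. All male libraries without fracture carry V numbers between these ranges. Whatever the V numbers mark thus cannot be told apart from fracture in the male fracture comparisons and the interaction. Within each range, and among libraries without fracture, repopulated and resident libraries also carry V numbers in separate runs. An effect of that order cannot be told apart from repopulation there. With the 3 repopulated and 3 resident libraries of V64 to V69 alone, 2 of the 7 calls after fracture held, those of Siglec1 and Zbp1. With the 4 repopulated and 2 resident libraries of V99 to V110 alone, 3 held, those of Bst2, Rsad2 and Rtp4. Leaving out single libraries ended the call for Zbp1 (repopulated replicates 3, 5, 6 and 7, resident replicates 1, 2, 3 and 5), for Ifitm3 (resident replicates 1, 2, 3 and 5) and for Xaf1 (resident replicates 2 and 5). A fit of only the 2 fracture groups called 5 of the 8 genes, without Ifitm3 and Zbp1, among 548 of the 11964 genes tested there.

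In female mice Ifitm2, the gene not called in males, was the only 1 of the 8 genes that rose in repopulated microglia, and it did so with and without fracture. All 8 estimates were positive in both comparisons, with medians of 0.59 without fracture and 0.73 with fracture, against -0.02 and -0.00 over all genes. Without fracture 1.56% of all genes were called higher and 47.6% had a positive estimate, and with fracture 1.27% were called higher and 50% had a positive estimate. The difference between the female and the male table was not tested.

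Ifitm2 had 11.4, 8.23 and 8.50 CPM in repopulated female libraries without fracture, against 2.10, 0.227, 3.44 and 1.85 CPM in resident libraries. With fracture it had 13.5, 8.03, 9.27 and 16.7 CPM in repopulated libraries, against 4.22, 2.14, 2.46 and 1.61 CPM in resident libraries. Every repopulated value was above every resident value in both comparisons. The log2 fold changes were 2.30 ± 0.55 (4.91-fold, adjusted p = 0.0384) without fracture and 2.18 ± 0.52 (4.54-fold, adjusted p = 0.0366) with fracture. These levels rest on few counts, 146 to 184 per repopulated library and 4 to 62 per resident library without fracture. The call without fracture was lost on leaving out any repopulated library or resident replicate 1 or 4, and the call with fracture on leaving out any 1 of the 8 libraries (adjusted p 0.0523 to 0.111). A fit of only the 2 groups without fracture did not call it either (adjusted p = 0.239).

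The other 7 genes did not pass the test in females, and the spread among resident libraries was wide. Ifitm3 had 450, 388 and 353 CPM in repopulated libraries without fracture, against 481, 83.7, 365 and 183 CPM in resident libraries. The highest and the lowest value were both resident, and the log2 fold change was 0.51 ± 0.49 (adjusted p = 0.704). Siglec1 had 50.8, 33.4 and 74.6 CPM in repopulated libraries, against 44.2, 6.25, 39.9 and 11.03 CPM in resident libraries. Its groups overlapped, and the log2 fold change was 1.06 ± 0.61 (adjusted p = 0.458). Rsad2 had 71.5, 144 and 90.6 CPM in repopulated libraries, against 77.8, 36.6, 78.9 and 48.3 CPM in resident libraries, a log2 fold change of 0.75 ± 0.35 (adjusted p = 0.340).

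Bst2, the tetherin gene, had 198, 200 and 204 CPM in repopulated female libraries without fracture, against 261, 78.1, 185 and 141 CPM in resident libraries. The mean was 200.4 ± 2.84 CPM (SD, n = 3) in repopulated libraries and 166 ± 76.8 CPM (SD, n = 4) in resident ones. Zbp1 averaged 88.8 ± 3.77 CPM in repopulated libraries and 56.1 ± 32.0 CPM in resident libraries. Xaf1 and Rtp4 averaged 105 ± 10.7 and 360.2 ± 33.3 CPM in repopulated libraries, and 84.5 ± 34.8 and 305 ± 132 CPM in resident libraries. Their log2 fold changes were 0.27 to 0.66 for Bst2, Zbp1 and Xaf1 and 0.24 for Rtp4 (adjusted p 0.493 to 0.805).

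With fracture, the female repopulated libraries lay above all resident ones for 4 of the 8 genes, Bst2, Ifitm2, Siglec1 and Rsad2, against 6.26% of all genes. Without fracture this held for Ifitm2 alone, against 6.87% of all genes. For Bst2 with fracture the lowest repopulated value, 136.3 CPM, was just above the highest resident one, 135.9 CPM. Its log2 fold change was 0.48 ± 0.28 (edgeR, adjusted p = 0.536). Siglec1 had 21.4, 20.9, 13.6 and 23.8 CPM in repopulated libraries with fracture, against 3.17, 11.8, 9.98 and 12.9 CPM in resident libraries. Rsad2 had 45.7, 98.1, 51.4 and 38.3 CPM in repopulated libraries, against 22.9, 35.8, 33.5 and 37.2 CPM in resident libraries. Neither passed the adjusted threshold, with log2 fold changes of 1.07 ± 0.58 for Siglec1 (adjusted p = 0.484) and 0.85 ± 0.34 for Rsad2 (adjusted p = 0.253).

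**Figure D2:**
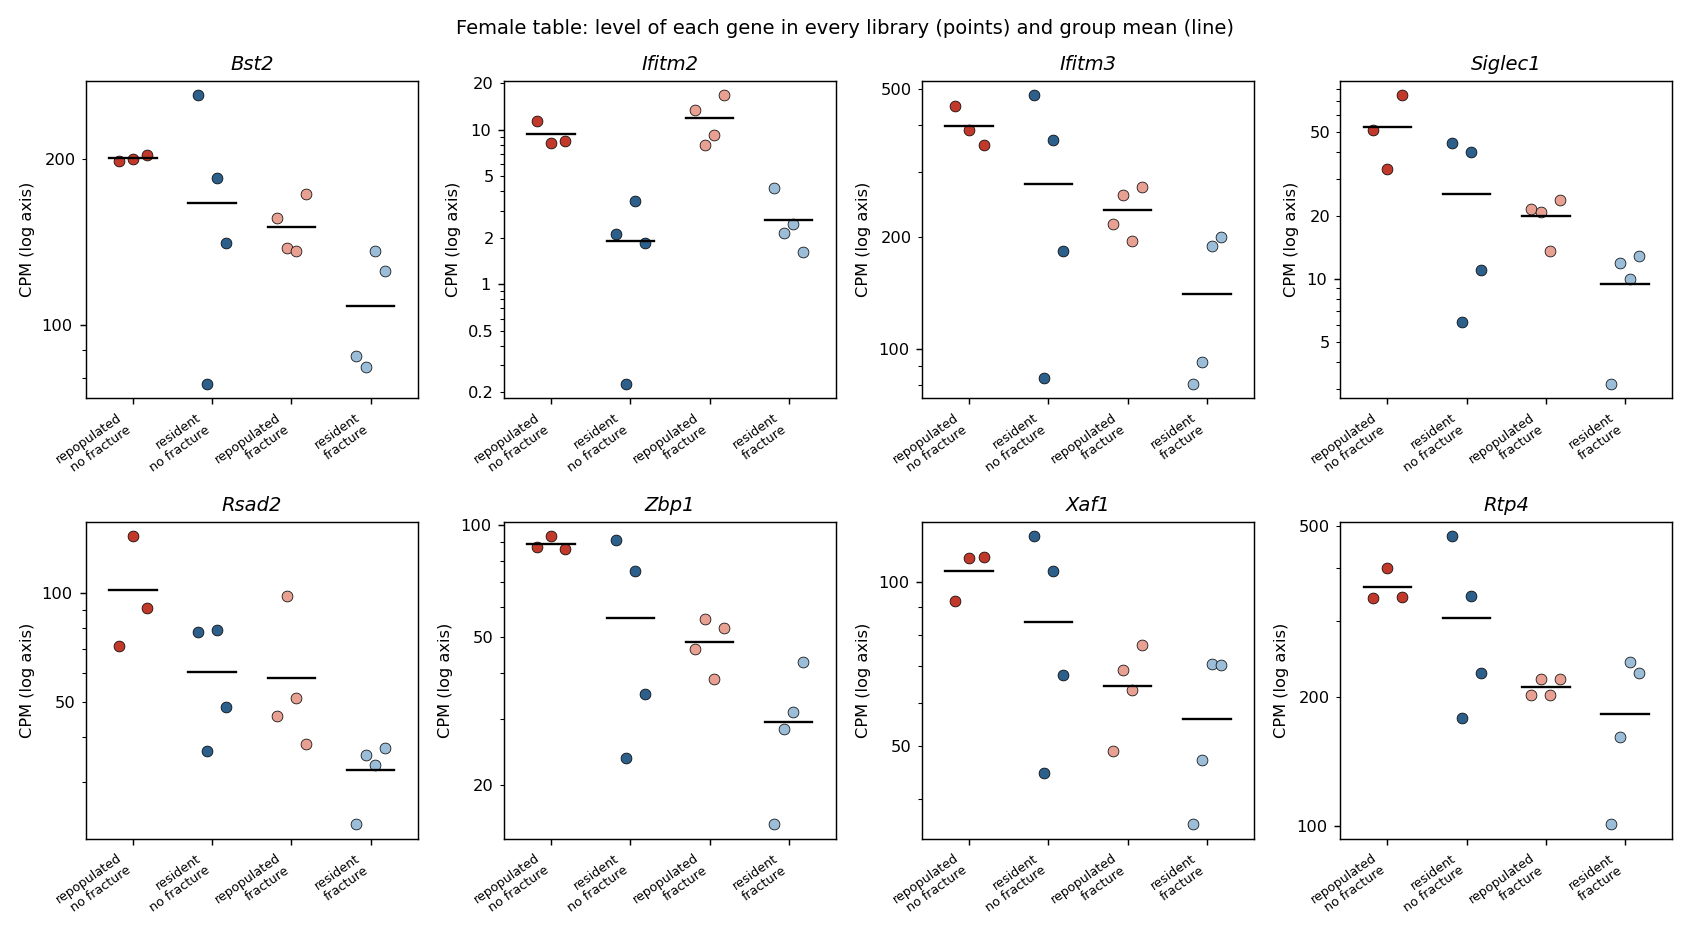
Level in the female table of the 8 genes, one panel per gene, as CPM on a log axis; each point is a library, each horizontal line is a group mean, and groups run along the x axis. Ifitm2 separates repopulated from resident libraries in both pairs of groups, at 8.23 to 11.4 against 0.227 to 3.44 CPM without fracture. For the other genes the resident libraries without fracture spread widely, as for Bst2 at 78.1 to 261 CPM.

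Each table was normalised on its own, so levels are set side by side across the sexes only as values. Ifitm3 averaged 397 ± 48.9 CPM (SD, n = 3) in female and 401 ± 3.53 CPM (SD, n = 2) in male repopulated libraries. In resident libraries it averaged 278 ± 178 CPM (SD, n = 4) in females and 32.8 ± 5.90 CPM (SD, n = 3) in males. Ifitm2 averaged 9.38 ± 1.76 CPM in female and 18.4 ± 3.62 CPM in male repopulated libraries, and 1.90 ± 1.32 CPM in female and 5.48 ± 3.00 CPM in male resident libraries. No test was made across the tables.

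**Figure D3:**
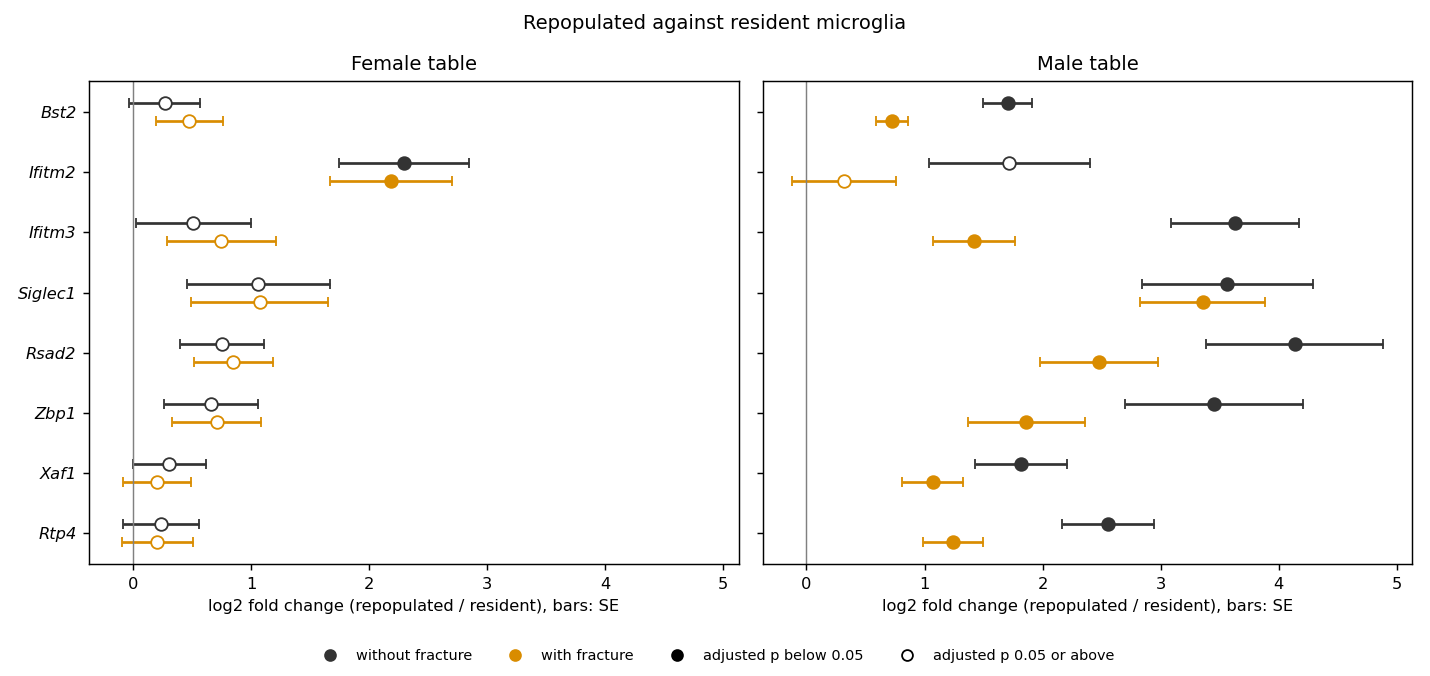
Log2 fold change of repopulated over resident microglia for the 8 genes (rows) in the female table (left) and the male table (right); bars are standard errors and filled points have an adjusted p below 0.05. In the female table only Ifitm2 is filled, at 2.30 without and 2.18 with fracture, and in the male table every gene except Ifitm2 is filled.

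Ifitm2 and Ifitm3 are close relatives, and counts of the 2 genes may be divided imperfectly between them. Their transcripts of 655 and 678 bases matched at 73.2% of 582 aligned columns. Of the summed counts of the pair in females without fracture, Ifitm2 made up 2.08% to 2.47% in repopulated libraries and 0.271% to 1.00% in resident libraries. In males without fracture its share ran the other way, 3.77% to 4.99% in repopulated and 9.23% to 23.0% in resident libraries. Neither of these pairs of ranges overlapped. With fracture both did, at 3.00% to 5.85% in repopulated and 0.801% to 4.97% in resident female libraries, and 2.60% to 13% in repopulated and 4.21% to 19.9% in resident male libraries. How far shared reads entered the Ifitm2 counts was not tested.

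Correlations over libraries were lower for pairs with Ifitm2 than for pairs without it. Over the 15 female libraries the 21 pairs among the other 7 had a median Pearson r of 0.901 on log2 CPM, and the 7 pairs with Ifitm2 a median of 0.460. Over the 17 male libraries the medians were 0.924 and 0.495. After taking away group means, the medians were 0.856 without and 0.423 with Ifitm2 in females, and 0.712 without and -0.0207 with Ifitm2 in males. These values describe libraries that share depth and group, and no test was made of their difference.

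**Figure D4:**
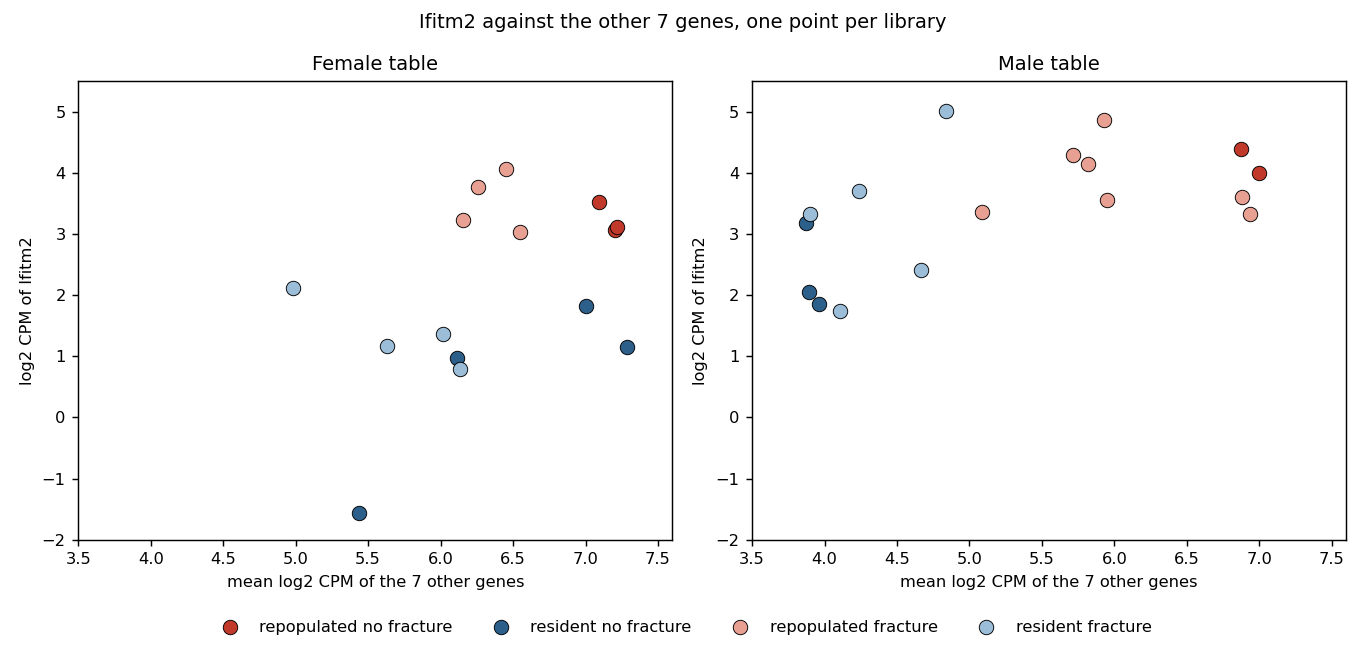
Level of Ifitm2 (y axis, log2 CPM) against the mean level of the other 7 genes (x axis, mean of log2 CPM), one point per library, in the female table (left) and the male table (right). Female repopulated libraries lie at 3.03 to 4.07 on the Ifitm2 axis and resident ones at -1.56 to 2.12. In males the resident libraries lie to the left, at 3.87 to 4.84 on the x axis, while their Ifitm2 levels reach up to 5.00.

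Single libraries were high or low for many of the 8 genes at once. Female resident replicate 2 without fracture had the lowest value of its group for all 8 genes, and replicate 1 had the highest for 6 of them. Female resident replicate 1 with fracture had the lowest value for 6 genes, while its Ifitm2 was the highest of the group. In male repopulated microglia with fracture, replicate 1 had the lowest value for 7 genes, and replicates 6 and 7 held the highest for 5 and 2 genes. The mean of log2 CPM over the 7 genes other than Ifitm2 was 5.09 in that replicate 1, against 6.94 and 6.88 in replicates 6 and 7. Summed monocyte markers were 4.66 CPM in replicate 1 and 35.3 and 37.7 CPM in replicates 6 and 7, but 40.9 CPM in replicate 2, whose mean was 5.93.

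Levels were compared between genes only after division by transcript length, as CPM per kilobase. On this scale Ifitm3 was the highest of the 8 in male repopulated microglia without fracture at 591 ± 5.21, followed by Bst2 at 363 ± 6.60, Rtp4 at 221 ± 17.96, and Xaf1 and Zbp1 at 52.7 ± 5.80 and 51.3 ± 2.00 (SD, n = 2). The ranges of Xaf1 and Zbp1 overlapped, and Rsad2, Ifitm2 and Siglec1 followed at 39.4, 28.0 and 3.59 CPM per kilobase. In male resident microglia without fracture Bst2 came first at 112 ± 9.30 CPM per kilobase, ahead of Ifitm3 at 48.4 ± 8.70, and their ranges did not overlap. Female microglia kept Ifitm3 first in all 4 groups, at 585 ± 72.1 CPM per kilobase in repopulated and 410 ± 263 in resident cells without fracture. Siglec1 was last in 7 of the 8 groups, and Ifitm2 was last in female resident microglia without fracture at 2.90 ± 2.01 CPM per kilobase.

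Fracture itself moved none of the 8 genes past the adjusted threshold in repopulated or resident microglia of either sex. In females 0.0% of genes were called in either direction by edgeR within repopulated or within resident microglia, and in males 0.00833% were called higher and 0.0% lower in each. DESeq2 also called none of the 8. The repopulated libraries without fracture also serve in the repopulation comparisons above, so the estimates share libraries.

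In female microglia 7 of the 8 estimates were negative with fracture, in repopulated and in resident cells alike, and only Ifitm2 was positive, while 51.1% and 52.1% of all genes had negative estimates. The medians were -0.76 in repopulated and -0.82 in resident microglia, and 5 of the 8 had an unadjusted p below 0.05 in each. The same unadjusted threshold with a negative estimate was met by 5.09% of all genes in repopulated and 3.45% in resident microglia. In repopulated microglia 6 of the 8 genes were lower with fracture with no overlap, against 6.2% of all genes. Siglec1 had the largest estimates, -1.41 ± 0.61 in repopulated (adjusted p = 0.450) and -1.42 ± 0.58 in resident microglia (adjusted p = 0.940). Rtp4 had 202, 220.5, 202 and 220 CPM in repopulated libraries with fracture, against 340, 399 and 342 CPM without it. The groups lay far apart against their spread, and the log2 fold change was -0.77 ± 0.32 (adjusted p = 0.442). With only the 2 repopulated groups in the fit, Ifitm3, Rtp4 and Zbp1 passed the threshold, among 86 of the 13256 genes tested there.

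In male microglia the estimates pointed apart. With fracture all 8 were negative in repopulated microglia, with a median of -0.61, and 7 of 8 were positive in resident microglia, with a median of 0.63. Of all genes, 48.0% had negative estimates in repopulated and 49.9% positive ones in resident microglia. At an unadjusted p below 0.05, 1 of the 8 was lower in repopulated microglia (Bst2), against 3.73% of all genes, and 3 were higher in resident microglia (Bst2, Ifitm3 and Rtp4), against 2.68%. Ifitm3 had 82.3 to 395 CPM in the repopulated libraries with fracture, with a median of 194 CPM, against 403 and 398 CPM without it. In resident libraries it had 94.6, 73.2, 55.8, 128 and 64.6 CPM with fracture, against 29.9, 39.6 and 29.0 CPM without it. Neither pair of groups overlapped. In repopulated microglia 4 of the 8 genes were lower with no overlap, Bst2, Ifitm3, Siglec1 and Rsad2, against 3.52% of all genes. In resident microglia 2 were higher with no overlap, Ifitm3 and Rtp4, against 2.36% of all genes.

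The difference of the fracture effects between repopulated and resident microglia was tested as an interaction. In males all 8 interaction estimates were negative, between -2.21 and -0.21, and none passed the adjusted threshold in edgeR, where 0.00833% of all genes were called positive and 0.0% negative. Those of Ifitm3 (-2.21 ± 0.62, adjusted p = 0.397), Bst2 (-0.98 ± 0.24, adjusted p = 0.342) and Rtp4 (-1.31 ± 0.46, adjusted p = 0.513) had an unadjusted p below 0.05, as did 3.98% of all genes with a negative estimate. DESeq2 called 2 of them, Bst2 and Ifitm3, and the fit on V64 to V69 alone called all 3, while the fit on V99 to V110 alone called none. In females the 8 interaction estimates lay between -0.11 and 0.24, none had an unadjusted p below 0.05 and DESeq2 called none. Of all genes, 1.97% and 1.72% had such a p with a positive and a negative estimate.

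**Figure D5:**
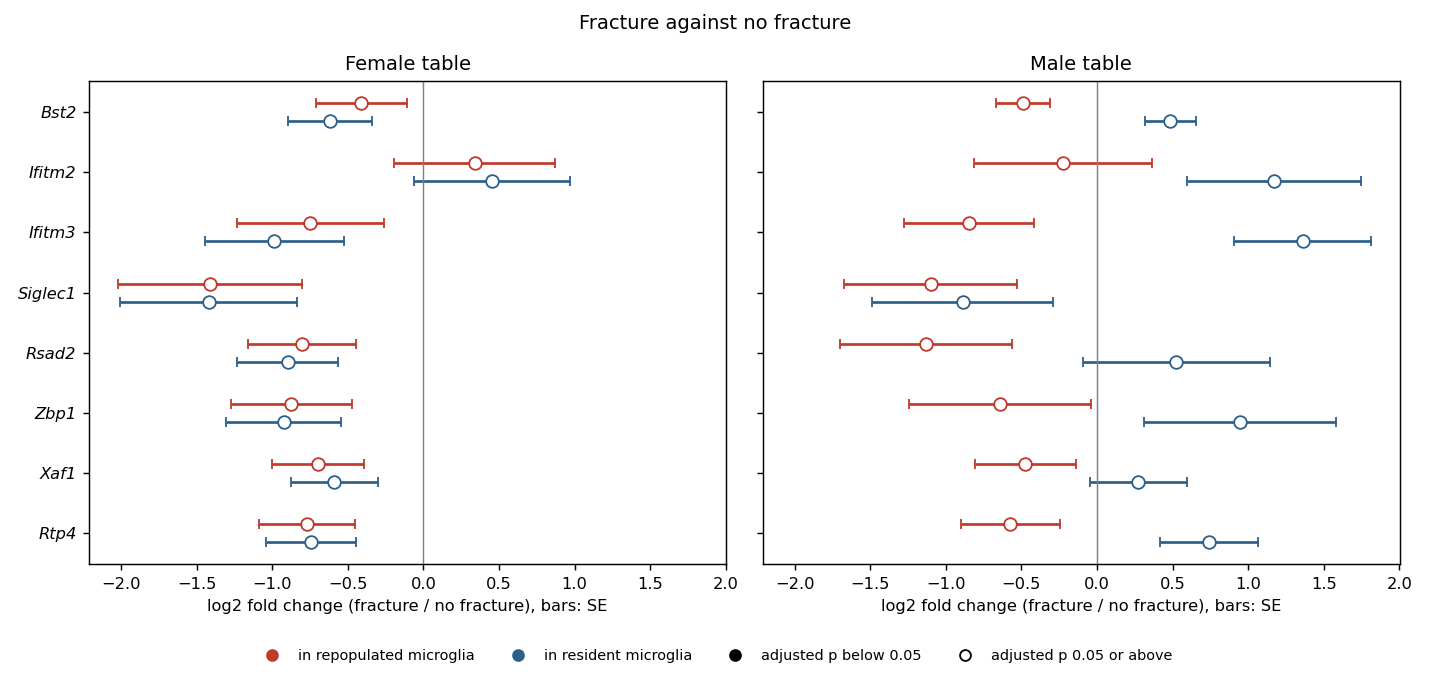
Log2 fold change of fracture over no fracture for the 8 genes (rows) in the female table (left) and the male table (right), in repopulated (red) and resident (blue) microglia; bars are standard errors and open points have an adjusted p of 0.05 or above. All points are open. In females the red and blue points lie together, and in males they lie on opposite sides of 0 for 7 genes, as for Ifitm3 at -0.85 and 1.36.

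The wider interferon pathway was described with lists chosen with earlier results of these data known. Of 40 other interferon-stimulated genes, 37 rose in male repopulated microglia without fracture (median log2 fold change 2.18) and 31 rose with fracture (median 1.31), against medians of -0.03 and -0.00 over all genes. Of all genes, 4.7% and 3.03% were called higher in these comparisons. Oas2, which makes the 2-5A messenger for RNase L, rose by 6.10 ± 0.94, and the chemokine gene Cxcl10 by 5.88 ± 0.81 on the log2 scale without fracture (adjusted p = 0.000623 and 0.000432). In females none of the 40 rose in either comparison, 37 and 39 estimates were positive, and the guanylate-binding protein gene Gbp7 fell by 0.79 ± 0.15 without fracture (adjusted p = 0.0163). For fracture itself, 0 of the 40 were called in either sex and cell state by edgeR.

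Among transcription factor genes of the pathway, Irf7, Stat2, Irf1 and Irf9 rose and Irf5 fell in male repopulated microglia without fracture. Irf7, which drives interferon gene expression, rose by 4.32 ± 0.71 and Stat2 by 2.18 ± 0.42 on the log2 scale (adjusted p = 0.00171 and 0.00373). Irf1 and Irf9 rose by 0.87 and 0.61, and Irf5 fell by 0.31. With fracture Irf7 and Stat2 rose by 2.35 and 1.305 in males, and in females none of these 5 genes was called in either comparison. Among receptor genes, Ifnar1 rose in female repopulated microglia without fracture (0.41 ± 0.09, adjusted p = 0.0226) and in male repopulated microglia without and with fracture (0.45 ± 0.12 and 0.40 ± 0.08, adjusted p = 0.0277 and 0.00444). Ifngr2 rose and Ifngr1 fell by 0.31 each in males without fracture. Of 10 interferon genes, the female table listed only Ifnb1, which was not called in any comparison, and the male table listed none.

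Negative regulators of the pathway also rose in males. Usp18, which removes Isg15 and blocks the receptor, rose by 3.64 ± 0.47 without fracture and by 1.96 ± 0.31 with fracture (adjusted p = 0.000267 and 0.00169). In these comparisons 6 and 2 of the 8 listed regulators rose, against 4.7% and 3.03% of all genes. Trex1, the DNA exonuclease, was the other gene that rose in both, by 1.31 and 0.67. Trim30a, Adar, Socs1 and Socs3 rose by 1.75, 1.46, 1.26 and 0.70 without fracture. Among other small interferon-induced proteins listed with the Ifitm genes, 4 of 7 rose in males without fracture, against 4.7% of all genes. Ifi27 fell there by 1.10. Slfn2, Ly6e and Tmem106a rose by 1.90, 0.83 and 0.72. Ifi27l2a rose most, by 3.52 ± 0.55 without and 1.40 ± 0.35 with fracture (adjusted p = 0.000959 and 0.0337). Of 7 other Siglec genes none rose, and Siglece, an inhibitory receptor, fell by 0.91 and 0.41 in males.

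Few partners of the cell death genes passed the test. Of 7 genes that act with Zbp1, Casp8 fell by 0.45 ± 0.11 in males without fracture (adjusted p = 0.0144) and Fadd rose by 0.79 ± 0.20 with fracture (adjusted p = 0.0235), and none was called in females. Of 7 genes listed with Xaf1, none was called in males, and Birc5, which encodes survivin, fell by 2.16 ± 0.47 in female repopulated microglia with fracture (adjusted p = 0.0284).

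The genes whose pattern over libraries was most like the mean of the 8 were ranked by Pearson r on log2 CPM among genes with a mean of at least 5 CPM. In females, over 15 libraries and 9208 genes, these included Sp100 (r = 0.986), Rnf213, Oas1a and Ifi204 (r = 0.975). In males, over 17 libraries and 9024 genes, these were Cybb (r = 0.984), Ifit3, Ifi204, Ifit1 and Usp18 (r = 0.980). On deviations from group means, they included Sp100, Rnf213, Irf7 and Nfkb2 in females, with r between 0.967 and 0.978. In males they included Slfn2, Vcam1, Ifit3 and Dhx58, with r between 0.910 and 0.950.

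Markers of other cells were measured beside these results. Summed monocyte markers, 4 of 10 listed in the male table, reached 36.8 to 53.2 CPM in repopulated libraries without fracture, against 2.57 to 12.6 CPM in resident libraries. With 5 of 10 listed in the female table they reached 49.4 to 66.4 CPM in repopulated libraries without fracture, against 6.02 to 36.8 CPM in resident libraries. The defining markers Ly6c2 and Ccr2 were not among the rows of either table. With fracture the sums were 4.66 to 40.9 CPM in repopulated and 2.29 to 102.1 CPM in resident male libraries, and 15.5 to 30.3 and 5.17 to 12.96 CPM in female ones. For repopulated over resident, 3 of the 5 female markers had positive estimates without fracture (median 2.47) and 4 with fracture (median 0.71). Of them 2 and 1 were called higher, against 1.56% and 1.27% of all genes. All 4 male markers had positive estimates without fracture (median 2.32) and 3 with fracture (median 0.63), and none was called. Markers of border-associated macrophages, cells that can hold Siglec1, did not move as 1 list. In males, with 5 of 9 listed, they summed to 108.6 to 202 CPM in repopulated and 201 to 218 CPM in resident libraries without fracture, and to 118 to 227 and 180.5 to 252 CPM with fracture. Yet 4 of the 5 had positive estimates in each comparison (median log2 fold changes 0.42 without and 1.55 with fracture). In each 1 was called lower, as were 326 and 225 of all genes. In females, with 4 of 9 listed, they summed to 223 to 305 CPM in repopulated and 246 to 476 CPM in resident libraries without fracture, and to 295 to 465 and 382 to 419 CPM with fracture. Of these 4 markers 3 had positive estimates in each comparison (medians 1.92 and 2.04), and 1 was called higher with fracture, against 1.27% of all genes. Plasmacytoid dendritic cell markers, 2 of 8 listed in males, summed to 177 to 184 CPM in repopulated and 131 to 177 CPM in resident libraries without fracture. There 1 of the 2 was called higher, against 4.7% of all genes. With fracture the male sums overlapped, at 143 to 174 and 146 to 187.5 CPM, and none was called. In females, with 4 of 8 listed, the sums overlapped in each comparison and none was called. The female medians were 0.33 without and -0.45 with fracture. B cell markers, 3 of 7 listed, were lower, at 312 to 340 CPM in male repopulated and 471 to 543 CPM in male resident libraries without fracture. Of these 3, 1 was called lower, as were 326 of the 11999 genes. With fracture the male B cell sums overlapped, at 331.9 to 450.7 and 429.0 to 528.5 CPM. There 2 of the 3 were called lower, as were 225 of all genes. Female B cell sums were 343.2 to 376.3 CPM in repopulated and 489.4 to 624.9 CPM in resident libraries without fracture. With fracture they were 388.6 to 460.8 and 545.5 to 600.0 CPM. All 3 female markers were called lower without fracture and 2 with it, as were 129 and 145 of all genes. The part of these cells in the results was not tested.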

How the data were processed

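The authors' deposited tables held estimated counts per transcript, all whole numbers, in 15 female and 17 male libraries. Per the submitters' processing notes, reads were handled with Trim Galore 0.6.7, cutadapt 3.4, STAR 2.7.6a and RSEM 1.3.1 on GRCm38, and DESeq2 1.34.0 and R 4.1.3 were named. The annotation used for counting is not given in the sources used here. Transcripts were summed by gene identifier.

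The female and male tables were never joined. The test was the robust quasi-likelihood F test of edgeR 4.0.16, run under R 4.3.3 after TMM scaling and filterByExpr (which removed no gene), in 1 model of 4 groups, with Benjamini-Hochberg adjustment over all genes and a threshold of 0.05. Standard errors were derived from the test, as the absolute log2 fold change divided by the square root of its F statistic. Lengths for CPM per kilobase came from GENCODE M21. Alternatives were DESeq2 1.42.0, other scaling factors and filters, fits of 2 groups, the replicate number as a block, single libraries left out, and V64 to V69 or V99 to V110 alone; the last was added after seeing the data.

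The 8 genes and all lists were chosen with earlier results of these data known. All 8 are described; of the pathway lists, called genes are named, except that 1 gene is not reported here and that in the list of 40 genes 2 of the largest changes stand for the rest, chosen after their values were seen. Of the lists of cell markers, those described are given by summed levels and by counts of called markers, and their called genes are not named. The fit was tested on simulated data with 200 changed genes per comparison, drawn from genes with a mean of at least 5 CPM. The shares recovered thus do not cover genes below that level. For male repopulated against resident microglia without fracture (11999 genes) it recovered 47% of 2-fold and 91% of 4-fold changes, and for females (13377 genes) 66% and 92%. No libraries had identical counts.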

Additional observations from a re-analysis of the deposited data

Results flagged for a closer look

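Siglec1 in male resident microglia with fracture was singled out because 1 library stood far from the other 4. Replicate 4 had 2.85 CPM, against 0.306 to 1.03 CPM in the others, a gap of 0.714 of the whole range of the group. Of 40 sets of 1 gene in 1 group that were large enough to examine, this was the only 1, and chance alone marks about 1 in 20 sets. The same library had 102.1 CPM of summed monocyte markers. Without it the log2 fold change of Siglec1 for repopulated over resident microglia with fracture was 4.14 (adjusted p = 0.000131), against 3.36 with it.

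Ifitm3 in males was singled out because its fracture effect pointed opposite ways in repopulated and resident microglia, with no overlap in either. The gap was narrow in repopulated libraries, at most 395 CPM with fracture against at least 398 CPM in the 2 without it. Resident libraries had at least 55.8 CPM with fracture against at most 39.6 CPM without it. What the V numbers mark cannot be told apart from fracture here. The interaction log2 difference was -2.21 ± 0.62 (edgeR, adjusted p = 0.397), so the difference did not pass the adjusted threshold.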

How the results depend on the processing

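Of 1208 gene-level values recomputed under the alternatives, 1145 kept their direction and their side of the threshold, 43 lost the call, 12 gained one and 8 changed sign. The fit with no filter repeated the main fit, as filterByExpr removed no gene, so its values were bound to stay the same. The total also includes the fracture comparisons and the male interaction, where the main fit called none of the 8 genes. A value that stays uncalled there says little about the calls, whose losses are given below. The sign changes, all in males and none of called values, were Ifitm2 for fracture in repopulated microglia with V64 to V69 alone (0.034) and for repopulated over resident with fracture with V99 to V110 alone (-0.75), and Siglec1 for fracture in resident microglia with V99 to V110 alone (0.020) or on leaving out single libraries (-1.66 to 0.12; positive without resident no fracture replicate 3). The Siglec1 interaction changed sign with V64 to V69 alone (0.49) and on leaving out single libraries (-1.22 to 0.56; positive without resident fracture replicate 4 and resident no fracture replicates 1 and 2). The causes were not tested.

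The labels do not say whether same-numbered libraries belong together. Deviations from group means of same-numbered libraries had a median r of -0.0117 over 21 female pairs (3 above 0.1) and -0.00987 over 17 male pairs (0 above 0.1). For libraries with different numbers the medians were 0.00715 over 63 female pairs (8 above 0.1) and 0.00159 over 84 male pairs (1 above 0.1). These correlations show no pairing by number but cannot exclude shared handling. With the replicate number as a block, 0 of the 8 genes were called for repopulated over resident in females with fracture or without it, 1 (Ifitm3) for fracture in male repopulated microglia, 3 in the male interaction, and 6 for repopulated over resident in males with fracture, where Xaf1 was lost. All genes called under the block numbered 143 and 184 in females without and with fracture (338 and 315 without the block), and 293 in males with fracture (589 without it).

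With only the 2 groups compared in the fit, 0 of the 8 genes were called for repopulated over resident in females without fracture, 3 for fracture in female repopulated microglia and 5 for repopulated over resident in males with fracture. DESeq2 called 2 in the male interaction, and V64 to V69 alone called 3. For repopulated over resident in males with fracture, 2 of the 8 were called with V64 to V69 alone and 3 with V99 to V110 alone, where fewer libraries entered. On leaving out each library, the number called ranged 0 to 0 in females with fracture, 0 to 1 in females without it, 4 to 7 in males with fracture and 6 to 7 in males without it.

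Counts over all genes under the alternatives were as follows, many of them more than 1.5 times apart from the main fit. Leaving out single libraries in males with fracture moved the count by less than that. For repopulated over resident in females, DESeq2 called 676 without and 680 with fracture, and fits of 2 groups 0 and 629; in males with fracture V64 to V69 alone gave 80 and V99 to V110 alone 123. Leaving out single libraries gave 51 to 612 and 106 to 233 in females, and 414 to 722 (890 with all libraries) and 400 to 716 in males, without and with fracture. For fracture, 0 genes were called in female repopulated and 0 in female resident microglia by edgeR (1410 and 659 at an unadjusted p below 0.05), against 89 and 3 by DESeq2 and 86 and 0 by fits of 2 groups. In males 1 gene each was called in repopulated and resident microglia and in the interaction, against 52, 12 and 41 by DESeq2, 40, 1 and 25 with V64 to V69 alone, 0, 2 and 1 with V99 to V110 alone, and 56, 2 and 57 under the block. Fits of 2 groups gave 0 in male repopulated and 5 in male resident microglia, and a mean of at least 5 CPM gave 0, 1 and 2. The female interaction gave 0 genes (494 unadjusted) and 1 by DESeq2. With library totals only, the split of higher against lower calls was 116 to 228 in females without fracture (209 to 129 by TMM), 110 to 276 with it (170 to 145), 442 to 501 in males without fracture (564 to 326) and 303 to 338 with it (364 to 225). Depth limits Ifitm2 in females, with 4 counts in 1 library, and Siglec1 in male resident libraries, with 4 to 92 counts.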
